A study of Mus musculus with 103 samples.

Results

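Mitochondrial ribosomal protein genes are nuclear genes for the protein parts of the ribosome that works inside mitochondria. They were taken as the gene symbols that begin with Mrpl (large subunit) or Mrps (small subunit) followed by a number, with 1 transcript per symbol, the one of highest mean level. All 77 such symbols, carried by 91 transcripts, reached 1 RPKM (the read count divided by transcript length and by library size) in at least 2 of the 6 RNA libraries, so all 77 are described, of 10605 genes that did so among 24014 symbols. The cells were macrophages drawn to the mouse peritoneum by thioglycollate, from male C57BL/6 mice of 6 to 8 weeks, kept overnight in 0.5% serum. The poly(A) RNA libraries were untreated cells of the 1-12 h series, cells given KLA at 100 ng/ml for 1, 6 and 12 h, cells given KLA for 24 h and the untreated cells of the 24 h series. KLA is Kdo2-lipid A, the active part of bacterial lipopolysaccharide, and it acts through the receptor TLR4. Peaks of the transcription factor SREBP1 and of LXR, the liver X receptor, come from 2 ChIP-seq samples of cells titled as given GW3965, an LXR agonist, at 1 µM, although the treatment label of the LXR sample reads control. Each condition has 1 library, so the comparisons below set single libraries side by side and have no replicate check. Whether a library pooled several mice is not stated in the labels.

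The mitochondrial ribosome makes the few proteins encoded by mitochondrial DNA, all of them subunits of the respiratory chain and the ATP synthase. Its RNAs come from the mitochondrial genome, but every one of its proteins is encoded in the nucleus, made in the cytosol and imported. Some of these proteins have a counterpart in bacterial ribosomes, while others exist only in mitochondria. Macrophages given a TLR4 ligand are known to shift from respiration towards glycolysis, which is the setting in which genes of mitochondrial translation are of interest. By a list drawn up from textbook classes, the 77 genes held 50 of the large subunit, 26 of the small subunit and Mrps36, which despite its name belongs to the 2-oxoglutarate dehydrogenase complex. Mrps18a and Mrps30 were counted with the large subunit, where mammals carry them. Of the 77 genes, 47 had bacterial counterparts and 29 were specific to mitochondria.

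Promoter sequences of 5 members are shown because these members carry the main observations below: Mrpl34 and Mrpl42 were the 2 members furthest below untreated cells after 6 h of KLA, Mrpl27 and Mrpl52 were among the 3 furthest above untreated cells after 12 h, and the strongest LXR peak near any member lay at the start of Mrpl46. Each run covers 250 bases before to 50 bases after the RefSeq gene start (build GRCm38.p6) and is written 5′ to 3′ on the strand of the gene. The windows are chr8:71464676-71464975 (plus strand) for Mrpl34, chr10:95501900-95502199 (minus strand) for Mrpl42, chr11:94653541-94653840 (plus strand) for Mrpl27, chr14:54426659-54426958 (plus strand) for Mrpl52 and chr7:78783040-78783339 (minus strand) for Mrpl46. Capitals mark CTACANNTC in Mrpl34 and Mrpl42, AAGATGGC in Mrpl42 only, and CCGGAAG or its reverse complement in Mrpl27 and Mrpl52; Mrpl34 also holds CCGGAAG, directly after its middle CTACANNTC, in lower case. No part of the Mrpl46 window is in capitals.
Mrpl34: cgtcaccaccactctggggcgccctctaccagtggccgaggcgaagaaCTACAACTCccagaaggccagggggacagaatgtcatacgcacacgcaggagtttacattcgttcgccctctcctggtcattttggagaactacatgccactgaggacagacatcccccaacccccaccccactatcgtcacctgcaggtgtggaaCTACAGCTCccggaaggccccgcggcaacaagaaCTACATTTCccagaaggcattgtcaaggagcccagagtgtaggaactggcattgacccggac
Mrpl42: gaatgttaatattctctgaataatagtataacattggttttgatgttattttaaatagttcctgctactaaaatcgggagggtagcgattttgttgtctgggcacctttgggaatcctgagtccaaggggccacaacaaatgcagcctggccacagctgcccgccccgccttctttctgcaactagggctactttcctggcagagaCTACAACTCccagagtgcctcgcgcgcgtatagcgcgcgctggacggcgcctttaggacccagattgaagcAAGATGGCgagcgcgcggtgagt
Mrpl27: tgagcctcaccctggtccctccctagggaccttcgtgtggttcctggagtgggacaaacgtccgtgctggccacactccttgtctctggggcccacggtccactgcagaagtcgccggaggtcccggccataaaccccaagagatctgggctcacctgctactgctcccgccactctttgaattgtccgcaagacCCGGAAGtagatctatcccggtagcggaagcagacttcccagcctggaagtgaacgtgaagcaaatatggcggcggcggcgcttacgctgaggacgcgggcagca
Mrpl52: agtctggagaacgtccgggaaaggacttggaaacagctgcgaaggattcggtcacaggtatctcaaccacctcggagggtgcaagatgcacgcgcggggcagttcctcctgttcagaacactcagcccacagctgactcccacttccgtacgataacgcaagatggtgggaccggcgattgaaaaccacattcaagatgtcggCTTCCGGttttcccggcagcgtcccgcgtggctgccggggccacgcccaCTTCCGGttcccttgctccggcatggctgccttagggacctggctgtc
Mrpl46: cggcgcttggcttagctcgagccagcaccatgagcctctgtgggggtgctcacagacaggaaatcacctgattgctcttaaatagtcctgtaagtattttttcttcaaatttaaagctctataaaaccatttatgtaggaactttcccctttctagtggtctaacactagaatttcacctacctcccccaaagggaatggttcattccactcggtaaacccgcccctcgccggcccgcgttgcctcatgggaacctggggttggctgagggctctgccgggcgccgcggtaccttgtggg

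RefSeq windows of this kind matched 68 of the 77 members and 7933 of all genes kept. The missing entries are Mrpl13, Mrpl15, Mrpl19, Mrpl38, Mrpl4, Mrpl54, Mrps28, Mrps34 and Mrps35. CCGGAAG, the core bound by ETS factors such as GABP, stood on either strand in 25 of 68 member windows (36.8%), against 22.1% of all windows. AAGATGGC, a core bound by YY1, stood in 12 member windows (17.6%), against 5.87% of all windows. CGCATGCG, the core of the NRF1 palindrome, stood in 7 member windows (10.3%), against 4.82% of all windows. These letters are a description of the windows and not evidence of binding. At 12 h against untreated 1-12 h, members with CCGGAAG had a median log2 ratio of -0.14, and members whose windows lacked it had -0.11. CTACANNTC, 9 letters of the longer element bound by ZNF143 and THAP11, was looked for after the values were seen, and it stood on either strand in 5 member windows (7.35%), against 7.71% of all windows. It stood at 3 places in the Mrpl34 window, with first bases at -202, -46 and -12 from the start, and at 1 place in Mrpl42, with its first base at -44. The other members that held it were Mrpl24, Mrpl50 and Mrps22. Their log2 ratios in KLA 6 h against untreated 1-12 h, together with those of Mrpl34 and Mrpl42, ran from -2.12 to -0.13. Over all 612 genes with these letters the median was -0.57, against -0.46 in genes without them.

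Reads per gene were recovered from the deposited RPKM, at library totals of 2205187 to 2674826 reads. With 1 transcript per symbol, all genes together took 1883937 to 2309724 reads per library, of which the 77 genes took 3152 to 5234 reads. Ratios of reads are therefore given with 95% exact binomial (Clopper-Pearson) intervals, which cover counting error only. Macrophage genes such as Lyz2 and Cd68 were abundant in all 6 libraries, while 7 markers of T, B and NK cells summed to 4.45 to 7.00 RPKM and 4 mast cell markers to under 0.84 RPKM. Of the 5 neutrophil markers in the table, S100a8 reached 118 RPKM in KLA 24 h, against 45.5 RPKM in untreated 24 h, and Camp 4.38 RPKM in KLA 24 h, while it was listed at 0 in untreated 24 h. S100a9, Mpo and Elane were listed at 0 in both. Fibroblast and mesothelial markers (5 genes) summed to 145 RPKM in KLA 24 h, against 92.1 RPKM in untreated 24 h, a sum that rested on Dcn (104 RPKM in KLA 24 h, 59.5 RPKM in untreated 24 h) and Col1a1 (29.2 RPKM in KLA 24 h, 13.9 RPKM in untreated 24 h). In the same pair Col3a1 was lower in KLA 24 h (10.2 RPKM, against 15.5 RPKM in untreated 24 h), and Upk3b was listed at 0 in KLA 24 h, with 2.85 RPKM in untreated 24 h. The part of these cell markers in the 24 h results was not tested. Transcripts of the 77 genes were short, with a median of 1050 bases against 2609 bases for all genes kept.

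Mitochondrial ribosomal protein RNA was present throughout, at a moderate level. Mean levels over the 6 libraries ran from 1.15 RPKM (Mrps36) to 105 RPKM (Mrpl33), with a median of 15.5 RPKM, against 8.06 RPKM for all genes kept. All but 1 of the members, 76 of 77, had reads in every library. Summed over the 77 genes, the level was 1967 RPKM in untreated 1-12 h, 1526 RPKM in KLA 1 h, 1369 RPKM in KLA 6 h and 1875 RPKM in KLA 12 h. In the 24 h series it was 1940 RPKM in KLA 24 h, against 1483 RPKM in untreated 24 h. The level was thus lowest at 6 h among the 1-12 h libraries, and the 2 untreated libraries stood about as far apart as KLA 24 h and untreated 24 h did. Since these are bulk samples, fewer cells of a type and less RNA per cell cannot be told apart.

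**Figure D1:**
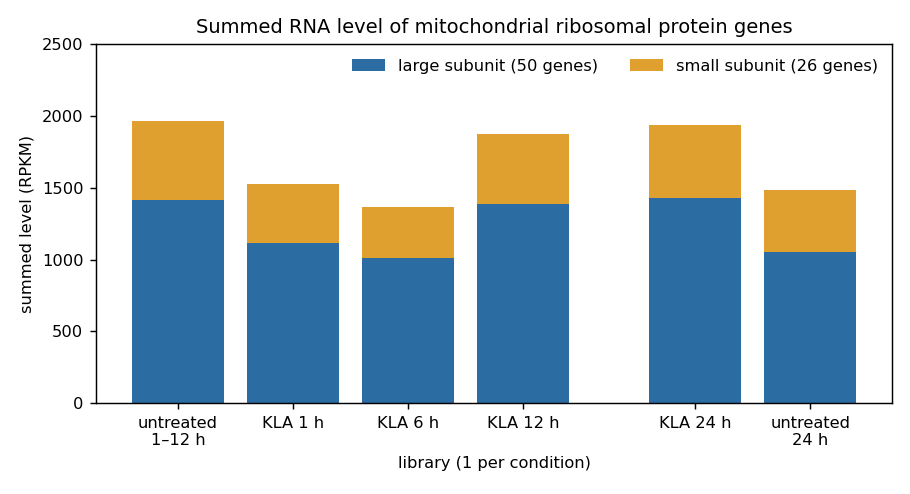
Summed level (RPKM, bars from 0) of the 50 large-subunit genes and the 26 small-subunit genes in each of the 6 libraries, 1 library per condition; Mrps36 is left out. Both subunits went the same way in every step, with the lowest bar in KLA 6 h (1010 RPKM large, 358 RPKM small) and near equal bars in untreated 1-12 h, KLA 12 h and KLA 24 h.

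The order of the members was led by Mrpl33, Mrpl52, Mrpl20, Mrpl30 and Mrpl54, all of the large subunit. Mrpl33, the counterpart of bacterial L33, had 143 RPKM in untreated 1-12 h, 128 RPKM in KLA 1 h, 88.8 RPKM in KLA 6 h and 83.5 RPKM in KLA 12 h, then 86.0 RPKM in KLA 24 h against 97.2 RPKM in untreated 24 h. Mrpl20, the counterpart of bacterial L20, had 132, 89.1, 81.2 and 88.0 RPKM in the same 4 libraries of the 1-12 h series, then 103 RPKM in KLA 24 h against 87.3 RPKM in untreated 24 h. Both were highest in untreated 1-12 h, and the 24 h pair lay within the range of the others. At the low end stood Mrps33, Mrps25, Mrpl19, Mrpl23 and Mrps36, with means of 4.21 RPKM or less. Mrpl23 had 1, 0, 5 and 0 reads in untreated 1-12 h and KLA 1, 6 and 12 h, then 3 reads in KLA 24 h against 7 reads in untreated 24 h. A count of 0 allows up to 3 reads, so at this depth no difference could be seen for Mrpl23 against the untreated library of the same series.

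In each comparison the median log2 ratio (of RPKM plus 1) of the 77 genes was read against all 10605 genes kept, because the median of all genes was itself below 0 in every KLA comparison. At 1 h the members' median was -0.37 and that of all genes -0.16. At 6 h the members stood at -0.55, with all genes at -0.46. By 12 h the members' median was -0.14, while all genes had -0.32. In the 24 h pair the members had 0.30, against -0.09 for all genes. The members' offset from all genes thus ran, over the times of KLA, through -0.21, -0.10, 0.19 and 0.39. Against the other untreated library the offset was 0.17, 0.28, 0.50 and 0.08, so its sign at 1 h and 6 h turned with the untreated library. Against untreated 1-12 h the direction at 12 h turned with the scaling: lower as deposited, and higher relative to all genes. Against untreated 24 h the 12 h median as deposited was above 0, at 0.16. The members kept closer together than genes at large, with an SD of log2 ratios across genes of 0.58 at 6 h, against 1.23 for all genes. This was not particular to them: the SD at 6 h was 0.40 for genes of the respiratory chain and ATP synthase. For cytosolic ribosomal protein genes it was 0.65.

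**Figure D2:**
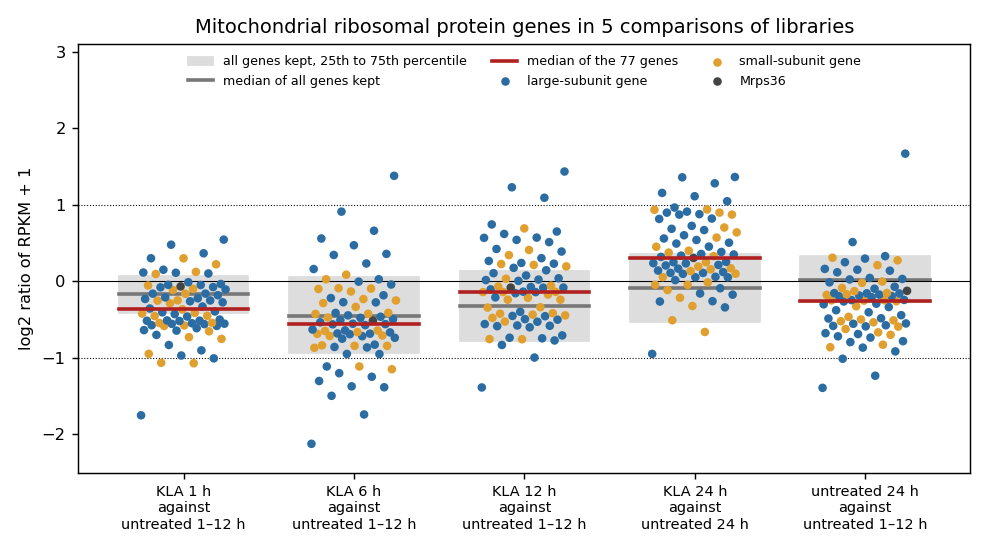
Log2 ratio of RPKM plus 1 (vertical axis) of each of the 77 genes in 5 comparisons of single libraries; red lines are the members' medians, grey lines and boxes the median and the 25th to 75th percentile of all genes kept, and dotted lines mark 2-fold. The red line lies below the grey one at 1 h and 6 h, above it at 12 h and 24 h (with the other untreated library the members lie above all genes at 1 h and 6 h too, by 0.17 and 0.28), and below it between the 2 untreated libraries (-0.25 and 0.02).

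After 6 h of KLA, mitochondrial ribosomal protein RNA was at its lowest, and mostly so in step with the rest of the transcriptome. Of the 77 genes, 65 had a lower level in KLA 6 h than in untreated 1-12 h, as had 7696 of the 10605 genes kept. At least 2-fold lower were 11 members (14.3%), while 22.4% of all genes kept were so. Summed reads gave a ratio of 0.69 (95% counting interval 0.66 to 0.72). Mrpl34, the counterpart of bacterial L34 (mm9 chr8:73988825-73989652), had 74.5 RPKM in untreated 1-12 h, 39.4 RPKM in KLA 1 h, 16.3 RPKM in KLA 6 h and 27.9 RPKM in KLA 12 h, then 35.4 RPKM in KLA 24 h against 42.5 RPKM in untreated 24 h. It was lowest in KLA 6 h, below both untreated libraries, and stood 4.56-fold lower than in untreated 1-12 h (2.93 to 7.37). Mrpl42, a protein specific to mitochondria (mm9 chr10:94943440-94964561), had 34.1, 16.9, 9.51 and 16.6 RPKM in untreated 1-12 h and KLA 1, 6 and 12 h, then 32.0 RPKM in KLA 24 h against 29.6 RPKM in untreated 24 h. Its 3 early KLA libraries lay below every other library, with a 3.59-fold lower level at 6 h (1.98 to 6.88).

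Mrpl49 and Mrpl51, both specific to mitochondria, were also at least 2-fold lower in KLA 6 h than in each untreated library. Mrpl49 had 10.8, 7.26, 3.18 and 9.97 RPKM in untreated 1-12 h and KLA 1, 6 and 12 h, then 12.2 RPKM in KLA 24 h against 13.0 RPKM in untreated 24 h. Mrpl51 had 11.1, 9.08, 3.90 and 6.21 RPKM in the same order, then 11.9 RPKM in KLA 24 h against 9.19 RPKM in untreated 24 h. For both, the 6 h library was the lowest of the 6. These 4 of 77 compare with 16.1% of all genes kept that were at least 2-fold lower than both untreated libraries. The other members at least 2-fold lower than untreated 1-12 h were Mrpl41, Mrpl24, Mrpl57, Mrpl14, Mrps21, Mrps12 and Mrpl40, from 2.24-fold for Mrps12 to 3.23-fold for Mrpl41. Mrps12 is the counterpart of bacterial S12, a protein of the decoding centre. On the other side, the level of Mrpl27 was 26.6 RPKM in KLA 6 h, against 13.7 RPKM in untreated 1-12 h, and that of Mrpl52 was 116 RPKM in KLA 6 h, against 78.3 RPKM in untreated 1-12 h. The 1 member counted as at least 2-fold higher, where 9.35% of all genes kept were so, was Mrpl23 with 5 reads in KLA 6 h, against 1 in untreated 1-12 h.

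**Figure D3:**
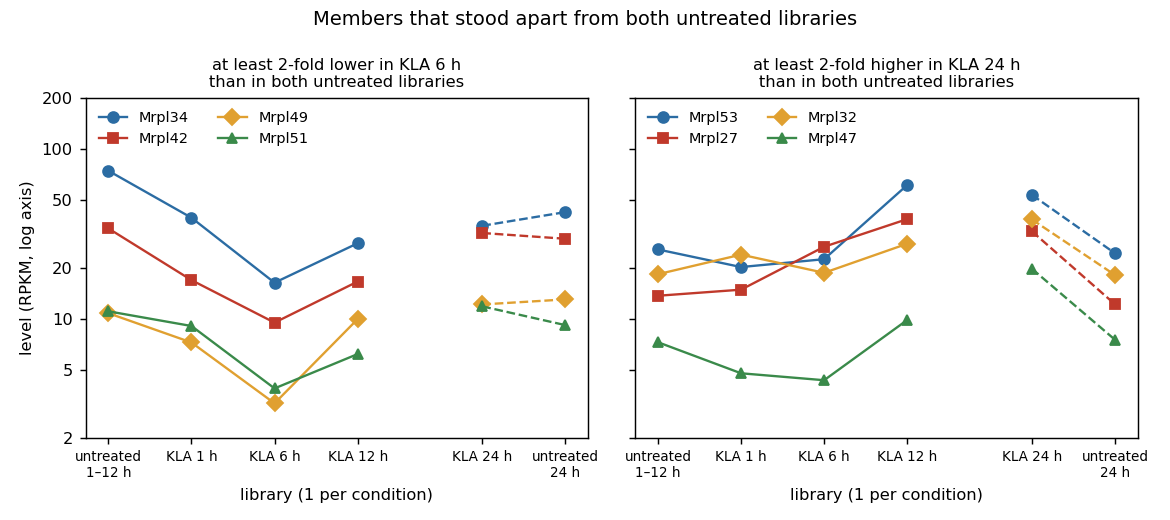
Level (RPKM, log axis) in each library of the 4 members at least 2-fold lower in KLA 6 h than in both untreated libraries (left) and of the 4 members at least 2-fold higher in KLA 24 h than in both (right); points are single libraries, and dashed lines join the 24 h pair. On the left every gene has its lowest point in KLA 6 h, while on the right each KLA 24 h point lies above both untreated points.

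After 1 h of KLA the members lay slightly below untreated cells. None was at least 2-fold higher (3.65% of all genes kept) and 4 of 77 were at least 2-fold lower (5.19%, against 4.09% of all genes kept). Mrpl44, a large-subunit protein with an RNase III fold, had 19.1 RPKM in untreated 1-12 h, 4.98 RPKM in KLA 1 h, 11.0 RPKM in KLA 6 h and 13.2 RPKM in KLA 12 h, then 18.4 RPKM in KLA 24 h against 16.8 RPKM in untreated 24 h. It was lowest at 1 h by a wide margin, with 17 reads in KLA 1 h against 60 in untreated 1-12 h, and a 3.84-fold lower level (2.21 to 7.02). The others were Mrps34 (14.4 RPKM in KLA 1 h, 31.3 RPKM in untreated 1-12 h), Mrps2 (4.95 RPKM in KLA 1 h, 11.4 RPKM in untreated 1-12 h) and Mrpl38 (7.98 RPKM in KLA 1 h, 17.1 RPKM in untreated 1-12 h). Against untreated 24 h the 1 h median was -0.027, so the lower level at 1 h rested on the choice of untreated library. Summed reads of KLA 1 h stood at 0.78 (0.74 to 0.81) of untreated 1-12 h, but at 0.99 (0.95 to 1.04) of untreated 24 h.

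After 12 h the members as a group were back near untreated 1-12 h, and 3 of them stood well above it. At least 2-fold higher were 3 of 77 (3.90%), against 8.88% of all genes kept, and at least 2-fold lower was 1, Mrpl34, against 16.3% of all genes kept. Mrpl27, whose bacterial counterpart L27 sits by the peptidyl transferase centre (mm9 chr11:94515105-94521401), had 13.7 RPKM in untreated 1-12 h, 14.9 RPKM in KLA 1 h, 26.6 RPKM in KLA 6 h and 38.7 RPKM in KLA 12 h, then 32.8 RPKM in KLA 24 h against 12.2 RPKM in untreated 24 h. All 3 late KLA libraries lay above both untreated libraries, with ratios of 2.83 (1.73 to 4.80) at 12 h and 2.69 (1.65 to 4.54) at 24 h. Mrpl52, specific to mitochondria (mm9 chr14:55045746-55048587), had 78.3, 68.9, 116 and 168 RPKM in untreated 1-12 h and KLA 1, 6 and 12 h, then 113 RPKM in KLA 24 h against 57.4 RPKM in untreated 24 h. In Mrpl52 too the 3 late KLA libraries were the highest, with KLA 12 h at the top. Mrpl53, also specific to mitochondria (mm9 chr6:83059102-83059926), had 25.6, 20.2, 22.5 and 61.4 RPKM, then 53.8 RPKM in KLA 24 h against 24.4 RPKM in untreated 24 h, and stood above both untreated libraries only from 12 h on. Its span overlaps Ccdc142 on the same strand, whose reads may be counted with it.

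The step between 6 h and 12 h of KLA did not depend on an untreated library. Summed reads of the 77 genes in KLA 12 h stood at 1.37 (1.31 to 1.44) of KLA 6 h, and the members' median log2 ratio was 0.44, which is 0.33 above that of all genes and, among transcripts under 2000 bases, 0.17 above that of the other genes. At least 2-fold higher in KLA 12 h than in KLA 6 h were 6 of 77 members (7.79%), against 4.83% of all genes kept. Among the other genes under 2000 bases the share was 8.95%, so the members showed no excess over genes of like length. Of the 6 members, Mrpl53 (61.4 RPKM in KLA 12 h, 22.5 RPKM in KLA 6 h) and Mrpl49 (9.97 RPKM in KLA 12 h, 3.18 RPKM in KLA 6 h) had the highest log2 ratios, 1.41 and 1.39. Among the 4 libraries of the 1-12 h series, KLA 6 h was the lowest for 44 members (57.1%), against 41.8% of all genes kept. KLA 12 h was the highest for 27 (35.1%), against 17.3%. Unlike the step itself, this ranking includes untreated 1-12 h, and its shares were not set beside genes of like length.

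After 24 h of KLA most members stood above untreated 24 h. Higher were 62 of 77, as were 4593 of the 10605 genes kept, with 6 members at least 2-fold higher (7.79%), against 9.98% of all genes kept, and none at least 2-fold lower, against 10.6%. The differences were mostly modest, with 23 members at least 1.5-fold higher (29.9%, against 16.9% of all genes kept) and 2 at least 1.5-fold lower (22.6% of all genes kept). Summed reads stood at 1.29 (1.24 to 1.35) of untreated 24 h. Set against untreated 1-12 h, however, the same library gave 1.01 (0.97 to 1.05) and a median of 0.0098. The higher level of the whole group was thus present against only 1 of the 2 untreated libraries. Relative to all genes the members lay higher against both, by 0.39 with untreated 24 h and by 0.08 with untreated 1-12 h. Among transcripts under 2000 bases, the medians against untreated 1-12 h were -0.030 for the members and -0.20 for the other genes.

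Mrpl27, Mrpl53, Mrpl32 and Mrpl47 were at least 2-fold higher in KLA 24 h than in both untreated libraries, which makes 4 of 77 members, while 7.83% of all genes kept were so. Mrpl32, whose maturation by a mitochondrial protease is a step of ribosome assembly in mouse and yeast, had 18.3, 23.9, 18.7 and 27.7 RPKM in untreated 1-12 h and KLA 1, 6 and 12 h, then 38.5 RPKM in KLA 24 h against 18.1 RPKM in untreated 24 h. Mrpl47, related to bacterial L29, had 7.29, 4.78, 4.35 and 9.85 RPKM in the same order, then 19.7 RPKM in KLA 24 h against 7.54 RPKM in untreated 24 h. In both, KLA 24 h was the highest of the 6 libraries, at 2.12 times (1.41 to 3.24) and 2.62 times (1.47 to 4.87) untreated 24 h. Mrpl38 and Mrpl46 were at least 2-fold higher than untreated 24 h alone. Mrpl38 had 22.0 RPKM in KLA 24 h, against 7.95 RPKM in untreated 24 h, but 17.1 RPKM in untreated 1-12 h. Mrpl46 had 28.0 RPKM in KLA 24 h, against 12.0 RPKM in untreated 24 h, and 19.9 RPKM in untreated 1-12 h. In all, 13 members were higher in KLA 24 h than in both untreated libraries beyond counting error (14.9% of all genes kept were), and 5 members, Mrpl1, Mrpl12, Mrpl40, Mrpl45 and Mrps18a, were lower at 6 h and higher at 24 h beyond counting error, each against its own untreated library (2.73% of all genes kept).

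The 2 untreated libraries also differed in these genes. Summed reads of untreated 24 h stood at 0.78 (0.75 to 0.82) of untreated 1-12 h, with 1 member at least 2-fold higher (1.72% of all genes kept) and 3 at least 2-fold lower (2.42% of all genes kept). Across all genes kept, the log2 ratio of untreated 24 h to untreated 1-12 h went with transcript length (Spearman rho 0.42 across genes, which share the same 2 libraries), and in KLA 24 h against untreated 24 h rho was -0.15. The values were therefore set beside other genes of like length, a comparison chosen after the data were seen. Among transcripts under 2000 bases, the 67 members had a median of 0.25 in KLA 24 h against untreated 24 h and the 3711 other genes 0.00. For untreated 24 h against untreated 1-12 h, the members had -0.26 and the other genes -0.19. At 6 h against untreated 1-12 h the members had -0.55 and the other genes -0.56, so that in this comparison both stood at the same point. At 1 h and 12 h against untreated 1-12 h the members lay at -0.33 and -0.14, and the other short genes at -0.21 and -0.27. With untreated 24 h as the control, the members had -0.024, -0.18 and 0.19 at 1, 6 and 12 h. The other short genes then had 0.00, -0.32 and -0.031. For KLA 12 h against KLA 6 h the members had 0.43 and the other genes 0.27. The gap in that step was 0.27 among transcripts under 1000 bases and 0.017 among those of 1000 to under 2000 bases. Among transcripts of 2000 bases or more, with 10 members, it was 0.52.

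The large and the small subunit went the same way when each KLA library was set against the untreated library of its own series. At 6 h the median was -0.56 for the 50 large-subunit genes and -0.45 for the 26 small-subunit genes, at 12 h -0.08 and -0.19, and at 24 h 0.34 and 0.18. Set against untreated 1-12 h, the summed level in KLA 24 h was slightly higher for the large subunit (1427 RPKM, against 1416 RPKM). For the small subunit it was lower (511 RPKM, against 550 RPKM). All 6 members at least 2-fold higher at 24 h, and 9 of the 11 at least 2-fold lower at 6 h, were of the large subunit, which holds 50 of the 77 genes. Against untreated 24 h, members with a bacterial counterpart had a median of 0.19 at 24 h and those specific to mitochondria 0.45. Their summed-read ratios were 1.23 (1.17 to 1.29) and 1.43 (1.33 to 1.53). Against untreated 1-12 h, the summed level in KLA 24 h was lower for members with a bacterial counterpart (1277 RPKM, against 1385 RPKM). It was higher for those specific to mitochondria (661 RPKM, against 581 RPKM). At 6 h these classes had medians of -0.57 and -0.54.

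Members with special roles did not form a group of their own. Mrpl12, the stalk protein that in human cells also binds the mitochondrial RNA polymerase, had 37.3, 31.6, 23.6 and 38.4 RPKM in untreated 1-12 h and KLA 1, 6 and 12 h, then 33.9 RPKM in KLA 24 h against 22.0 RPKM in untreated 24 h. Its ratio was 0.63 (0.44 to 0.91) at 6 h and 1.54 (1.08 to 2.21) at 24 h, while against untreated 1-12 h the 24 h level was lower. Mrpl10 and Mrpl11, which anchor the stalk, had 24 h ratios of 1.13 (0.81 to 1.57) and 0.82 (0.59 to 1.14), both with intervals that include no difference. The 3 relatives of bacterial S18 occupy different places in the ribosome. At 24 h their ratios were 1.49 (1.07 to 2.09) for Mrps18a, 1.74 (0.89 to 3.52) for Mrps18b and 1.57 (1.08 to 2.30) for Mrps18c. At 6 h Mrps18a was lower, at 0.59 (0.41 to 0.84), while Mrps18b and Mrps18c stood at 1.07 (0.48 to 2.45) and 0.82 (0.51 to 1.31). Mrps30 was among the few members above untreated 1-12 h at 6 h, with 18.6 RPKM in KLA 6 h against 14.3 RPKM in untreated 1-12 h, and it had 25.6 RPKM in KLA 24 h against 15.6 RPKM in untreated 24 h.

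The members are spread over 17 chromosomes, and 27 of 77 (35.1%) had another gene starting within 1000 bases on the opposite strand, against 17.2% of all genes kept. Mrpl46 and Mrps11 are such a pair of members, with starts 42 bases apart. Mrpl46 had 19.9 RPKM in untreated 1-12 h, 13.1 RPKM in KLA 6 h and 31.0 RPKM in KLA 12 h, while Mrps11 had 13.9, 10.1 and 16.1 RPKM in these libraries. At 24 h their log2 ratios were 1.15 and 0.25. Mrpl30 and Mitd1, a gene of membrane abscission, start 142 bases apart. Mitd1 had 53.5 RPKM in KLA 6 h, against 7.02 RPKM in untreated 1-12 h, while Mrpl30 had 54.4 RPKM in KLA 6 h, against 54.5 RPKM in untreated 1-12 h. Mrpl32 and Psma2, a proteasome subunit gene, start 205 bases apart, and both were higher at 24 h, with log2 ratios of 1.05 and 1.23. Mrpl41 and Pnpla7 were both lower at 6 h (-1.38 and -2.22), but at 24 h Mrpl41 stood at 0.49 and Pnpla7 at -1.88. Neighbours on opposite strands thus had like ratios in some pairs and unlike ratios in others. Reads of 9 members whose spans overlap another gene, among them Mrpl24, Mrpl41, Mrpl49 and Mrpl53, cannot be told apart from reads of the overlapping gene if strand was not used. For 3 of them, Mrpl53, Mrps6 and Mrpl21, the other gene lies on the same strand, so use of strand would not separate the reads.

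**Figure D4:**
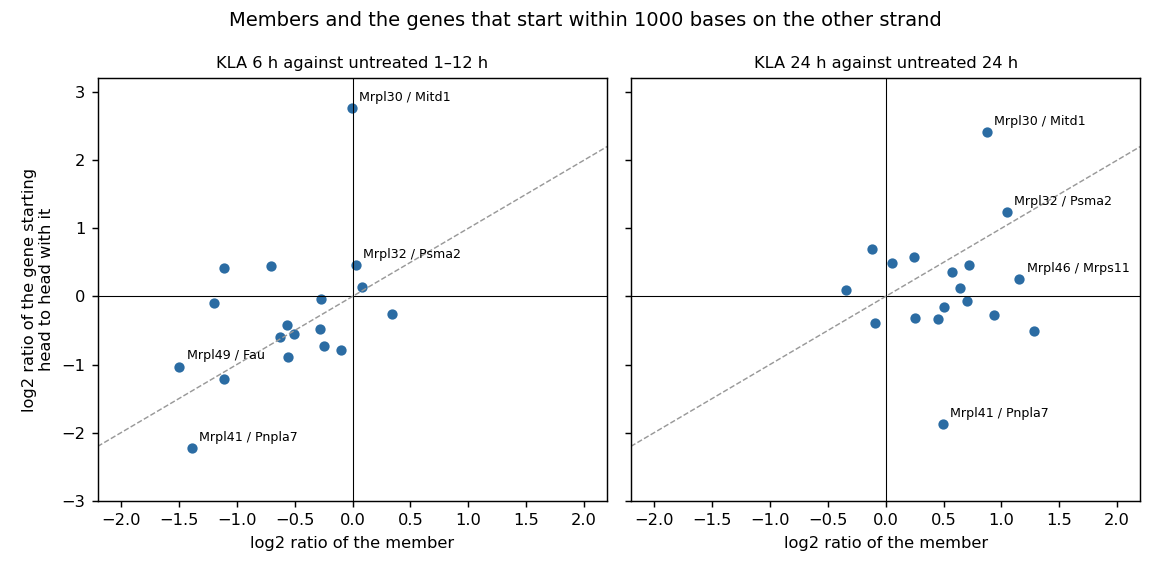
Log2 ratio of RPKM plus 1 of members (horizontal axis) and of the gene that starts within 1000 bases on the other strand (vertical axis), for pairs in which both genes were kept, in KLA 6 h against untreated 1-12 h (left) and KLA 24 h against untreated 24 h (right); the dashed line marks equal ratios. Mitd1 stands far above the line at both times (2.77 and 2.41), with Mrpl30 at 0.00 and 0.87.

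Other genes of mitochondrial translation, from lists of textbook members, were set beside the 77 genes. Ribosomal proteins with other names (6 genes kept) had a median of -0.27 at 6 h and 0.62 at 24 h, with none at least 2-fold changed. Among them Chchd1, a small-subunit protein, had 101 RPKM in KLA 24 h against 62.5 RPKM in untreated 24 h, and Dap3, a GTP-binding small-subunit protein, had 5.66 RPKM in KLA 24 h against 3.51 RPKM in untreated 24 h. Translation factors (11 genes) had medians of -0.51 at 6 h and 0.10 at 24 h. Tufm, the elongation factor that brings tRNA to the ribosome, had 6 reads in KLA 6 h against 15 in untreated 1-12 h. Assembly and rRNA modification factors (18 genes) had a median of -0.66 at 6 h, against -0.46 for all genes kept, and 6 of the 18 were at least 2-fold lower, against 22.4% of all genes kept. At 24 h their median was -0.02 and none was at least 2-fold lower. Mpv17l2, an assembly factor, had 10.6 RPKM in KLA 6 h against 36.1 RPKM in untreated 1-12 h, and Rbfa, which matures the small subunit, had 6.30 RPKM in KLA 6 h against 20.3 RPKM in untreated 1-12 h. In untreated 24 h, Mpv17l2 had 17.8 RPKM and Rbfa 10.7 RPKM, both nearer to KLA 6 h. Mrm1, a methyltransferase of the large rRNA, had 0.34 RPKM in KLA 1 h (2 reads) against 6.41 RPKM in untreated 1-12 h (35 reads).

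Genes of mitochondrial RNA upkeep differed from one another in direction. Slirp, which with Lrpprc stabilises mitochondrial mRNA, had 77.0 RPKM in untreated 1-12 h, 82.7 RPKM in KLA 1 h, 125 RPKM in KLA 6 h and 253 RPKM in KLA 12 h, then 221 RPKM in KLA 24 h against 88.8 RPKM in untreated 24 h. Pnpt1, a mitochondrial exoribonuclease gene known to respond to interferon, had 32.9 RPKM in KLA 6 h against 9.06 RPKM in untreated 1-12 h. Hsd17b10, a subunit of mitochondrial RNase P, had 15.3 RPKM in KLA 6 h against 50.3 RPKM in untreated 1-12 h. Polrmt, the mitochondrial RNA polymerase, had 2.24 RPKM in KLA 6 h against 3.98 RPKM in untreated 1-12 h, and Tfam, which packages mitochondrial DNA, had 4.95 and 5.90 RPKM in these libraries, both with counting intervals that include no difference. Among regulators of nuclear genes for mitochondria, Myc had 61.6 RPKM in KLA 1 h against 6.82 RPKM in untreated 1-12 h, and Esrra had 16.8 RPKM in KLA 24 h against 8.62 RPKM in untreated 24 h. Pprc1, a coactivator related to PGC-1, had 6.70 RPKM in KLA 24 h against 4.50 RPKM in untreated 24 h. In untreated 1-12 h, Esrra had 14.2 RPKM, nearer to KLA 24 h, and Pprc1 had 5.54 RPKM, between the values of the 24 h pair. The tRNA synthetases (17 genes) had medians of -0.47 at 6 h and -0.16 at 24 h; Lars2 held most of their reads, at 250 to 522 RPKM.

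Set beside the cytosolic ribosomal proteins (78 genes) and the respiratory chain with ATP synthase (86 genes), the members lay nearest the cytosolic ribosomal proteins at 6 h. At 1 h the medians were -0.37 for the members, -0.24 for the cytosolic ribosomal proteins and -0.29 for the respiratory chain. At 6 h the medians were -0.55 for the members, -0.57 for the cytosolic ribosomal proteins and -0.70 for the respiratory chain. At 12 h they were -0.14, -0.43 and -0.34, and at 24 h 0.30, -0.24 and 0.03. Between untreated 24 h and untreated 1-12 h they were -0.25, -0.53 and -0.33. Differences between these medians have no test in single libraries.

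**Figure D5:**
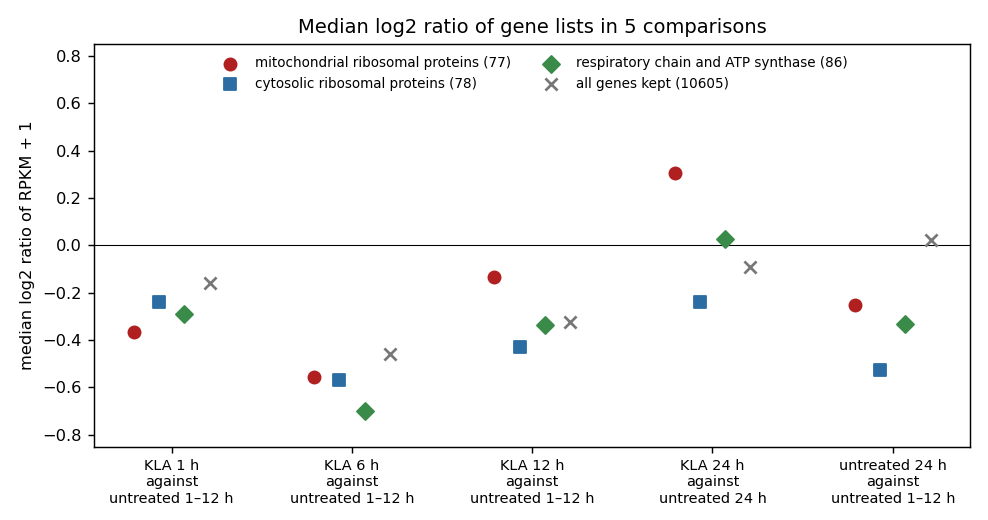
Median log2 ratio of RPKM plus 1 (vertical axis) of the 77 mitochondrial ribosomal protein genes, 78 cytosolic ribosomal protein genes, 86 genes of the respiratory chain and ATP synthase and all 10605 genes kept, in 5 comparisons of single libraries. The members' point is the highest of the 4 at 12 h and 24 h, and all 3 gene lists lie below all genes between the 2 untreated libraries.

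The peak lists of LXR and SREBP1 come from samples titled GW3965, with no KLA in the titles, and LXR is a receptor of oxysterols while SREBP1 drives fatty acid synthesis genes. Peak heights are the authors' own. A peak centre within 1000 bases of the start was listed for LXR at 55 of 77 members (71.4%), against 52.2% of all genes kept, and for SREBP1 at 36 of 77 (46.8%), against 41.2%. At 24 members both lists had a peak and at 10 neither. The median over these peaks was 24.0 normalized tags for LXR and 9.84 for SREBP1. The LXR peak of highest tag count near a member had 609 tags and lay by the starts of Mrpl46 and Mrps11 (mm9 chr7:85927995-85928179). It ranked 63 of 40660 by score, and its centre lies 112 bases before the start of Mrpl46 and 70 bases after that of Mrps11. A further LXR peak of 543 tags (rank 112) was centred 31 bases before the start of Mrps27, and 1 of 109 tags (rank 2240) was centred 10 bases before the start of Mrpl34. The SREBP1 peak of highest tag count near a member, 28.7 tags (rank 128 of 13984), lay 217 bases after the start of Mrps5. The Mrpl46 window printed above holds no AGGTCA, the half-site of nuclear receptors, and its absence says only that these letters are not in the window. Members with an LXR peak (55) had a median log2 ratio of -0.29 at 1 h, against -0.42 for members without one (22), and -0.08 at 12 h, against -0.29. At 6 h the values were -0.55 with and -0.57 without a peak, and at 24 h 0.30 and 0.28.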

How the data were processed

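RNA of 6 libraries and peaks of 2 ChIP-seq samples were used, of 103 samples that the labels describe; the others are not analysed here. The authors' deposited table holds RPKM per transcript, with mm9 coordinates. The submitters' processing notes list mm9, HOMER, STAR and Bowtie 0.12.7, but not what each was used for, and whether counting used strand is not given there. A value of 0 can be a failed estimate. Multiplying each RPKM by transcript length gave whole reads (within 0.01) for at least 99.97% of the values, at 2205187 to 2674826 reads per library; these totals set the counting intervals. No test was run, because each condition has 1 library, and a count model has no spread to estimate.

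Genes were kept at 1 RPKM in 2 libraries, and log2 ratios used a pseudocount of 1 RPKM, which understates changes of low genes. A gene was called at 2-fold on that scale. "Beyond counting error" means that the 95% exact interval of the read ratio leaves out 1. Members and lists were chosen with earlier results of these data known. Mrpl55 was moved to the class specific to mitochondria after the data were seen. Named members were those past 2-fold, the 5 highest and lowest of each KLA comparison with at least 20 reads, the 5 highest and lowest in mean level, members with set roles and members with strong peaks; of the listed genes outside the 77, those past 2-fold and a few set ones were eligible, and not all are printed. The ratio step was tested on simulated libraries.

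HOMER made the peak lists, per the file headers. Each peak carries, as deposited by the authors, a signal (normalized tag count), a fold over input and a score. The LXR sample is titled GW3965 while its treatment label reads control, and its file header names GW3965 and an input of KLA-treated cells; the title was followed. Peaks are 1 list per sample, without replicates. Python 3.11.15, numpy 2.4.6, pandas 2.3.3, scipy 1.17.1 and matplotlib 3.10.9 were used.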

Additional observations from a re-analysis of the deposited data

Results flagged for a closer look

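The members' median log2 ratio had opposite signs at 6 h and at 24 h of KLA, at -0.55 in KLA 6 h against untreated 1-12 h and 0.30 in KLA 24 h against untreated 24 h. The difference was not tested, since each value rests on 1 library of KLA and 1 untreated library. Set against the same untreated library, the 2 values were -0.55 and 0.0098 with untreated 1-12 h, and -0.18 and 0.30 with untreated 24 h.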

How the results depend on the processing

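No paired analysis was possible because each condition has 1 library. The untreated library and the scaling moved the results most. With the other untreated library, the members' median log2 ratio of -0.027 at 1 h was near 0, the 6 h value was -0.18, that of KLA 24 h was 0.0098, and at 12 h the sign reversed, to 0.16. Members at least 2-fold higher and lower then numbered 1 and 2 at 1 h (4.01% and 4.95% of all genes kept), 3 and 4 at 6 h (9.04% and 23.8%) and 5 and 1 at 24 h (10.3% and 11.7%), and 5 were higher at 12 h (9.74%). Median-of-ratios rescaling, with size factors from 0.80 (KLA 6 h) to 1.18 (untreated 24 h), gave medians of -0.17 at 1 h, -0.054 at 6 h and, reversed, 0.22 at 12 h. It left 1 member lower at 1 h (2.40% of all genes kept), 4 higher and 3 lower at 6 h (14.1% and 10.9%) and 5 higher at 12 h (12.1%). The cause of the reversals was not tested. A pseudocount of 0.1 RPKM gave 7 members lower at 1 h (8.30% of all genes kept), 3 at 12 h (23.9%) and 1 at 24 h (14.8%). A pseudocount of 3 RPKM gave 1 lower at 1 h (1.20%), 0 higher (7.45%) and a median of -0.45 at 6 h, a median of 0.24 at 24 h and 1 lower between the untreated libraries (1.09%). A floor of 5 RPKM left 0 members higher at 6 h (11.2%) and 0 higher between the untreated libraries (1.46%). At 1.5-fold, 15 were lower at 1 h (14.4% of all genes kept), 3 higher and 35 lower at 6 h (13.5% and 42.8%), 7 higher and 11 lower at 12 h (13.5% and 34.4%), 23 higher and 2 lower at 24 h (16.9% and 22.6%), and 18 lower between the untreated libraries (9.51%). The remaining 77 of 112 alternative values moved by less than the margin (centre to bound, log2) of the counting interval of the summed reads or, for counts, stayed within 1.5 times. Depth limits the low members, since 3 reads in a transcript of 1000 bases come to 1.12 to 1.36 RPKM.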
